A study of Mus musculus with 8 samples.

Results

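The NRF2 antioxidant system and the metallothioneins were examined through 10 genes, listed by name and found in the deposited table by Ensembl identifier, out of 55487 gene identifiers in all. The genes were *Nfe2l2*, which encodes the transcription factor NRF2, *Keap1*, which encodes its inhibitor, 6 genes known as NRF2 targets (*Nqo1*, *Hmox1*, *Gclc*, *Gclm*, *Txnrd1* and *Srxn1*) and the metallothionein genes *Mt1* and *Mt2*. They were measured by RNA-seq of polyadenylated RNA in skeletal muscle of 8 male C57BL/6J mice, 10 weeks old, which form a single group (n = 8). Every mouse had both hindlimbs immobilized in casts for 8 days and was given K14Q MOTS-c, 15 mg/kg/day, split over 2 intraperitoneal injections. MOTS-c is a small peptide encoded in mitochondrial DNA, and K14Q is a variant in which a lysine is replaced by glutamine. Mice without casts, mice without the peptide and mice given the wild-type peptide were not analysed here, so casting, the injections and the peptide are shared by all the libraries and none of their effects can be told apart from the others. The comparisons possible were therefore between the mice, between the genes, and between each gene and other measures of the same libraries.

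In unstressed cells KEAP1 holds NRF2 in the cytoplasm and presents it to a CUL3 ubiquitin ligase, so that the protein is degraded. Oxidants and electrophiles modify cysteines of KEAP1, NRF2 accumulates, pairs with small MAF proteins and binds antioxidant response elements in DNA, and the genes controlled in this way make and recycle glutathione and thioredoxin and detoxify quinones and heme. Metallothioneins are small cysteine-rich proteins that bind zinc and copper; their genes are induced by metals through MTF1 at metal response elements and also by glucocorticoids and oxidative stress. Because NRF2 is controlled largely at the protein level, the *Nfe2l2* transcript is not a measure of NRF2 activity.

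Before the levels, the promoter sequences of 4 genes are given. By Pearson's r of the log2 normalized counts, though not in every setting, the 2 closest pairs of genes between mice were *Mt1* with *Mt2* and *Gclm* with *Srxn1*. They are the 250 bases before the RefSeq start of each gene on GRCm38.p6, all on the plus strand, in lower case, with capitals marking letters of an antioxidant response element core (TGACNNNGC, or the wider TGANNNNGC) or a metal response element core (TGCACNC or TGCGCNC) on either strand.
Mt2, chr8:94172368-94172617: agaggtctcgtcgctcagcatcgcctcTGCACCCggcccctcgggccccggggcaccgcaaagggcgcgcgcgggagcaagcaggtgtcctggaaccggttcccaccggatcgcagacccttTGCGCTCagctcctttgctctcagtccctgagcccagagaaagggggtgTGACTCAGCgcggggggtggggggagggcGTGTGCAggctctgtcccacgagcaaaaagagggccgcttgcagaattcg
Mt1, chr8:94178839-94179088: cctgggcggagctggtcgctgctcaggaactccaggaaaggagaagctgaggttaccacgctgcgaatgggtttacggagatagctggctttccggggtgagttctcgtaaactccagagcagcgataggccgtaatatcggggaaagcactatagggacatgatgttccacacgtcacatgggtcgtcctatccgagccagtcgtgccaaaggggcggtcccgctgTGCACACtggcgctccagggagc
Gclm, chr3:122245307-122245556: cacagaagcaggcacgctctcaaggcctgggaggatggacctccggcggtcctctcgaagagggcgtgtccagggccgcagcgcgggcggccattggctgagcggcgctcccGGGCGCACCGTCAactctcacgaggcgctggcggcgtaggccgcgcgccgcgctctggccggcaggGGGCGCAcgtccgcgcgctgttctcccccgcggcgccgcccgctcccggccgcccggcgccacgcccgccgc
Srxn1, chr2:152105274-152105523: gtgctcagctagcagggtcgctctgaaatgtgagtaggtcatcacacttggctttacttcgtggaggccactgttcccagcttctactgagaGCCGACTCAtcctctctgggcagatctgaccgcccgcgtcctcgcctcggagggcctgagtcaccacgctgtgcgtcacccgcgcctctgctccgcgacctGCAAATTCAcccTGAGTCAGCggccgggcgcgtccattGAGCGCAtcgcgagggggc

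The search covered 300 bases per start, the 250 above plus the first 50 of the transcript, and was made in all 32851 RefSeq windows of that length. The *Mt2* window held 1 antioxidant core, TGACTCAGC at positions -79 to -71 from the start, and 4 metal cores. A single antioxidant core or more was found in 12.39% of all windows, 4 or more metal cores in 0.5175%, and at least 1 metal core in 25.7%. The *Mt1* window held no antioxidant core and 3 metal cores, of which 1 lies before the start. In *Gclm*, 1 antioxidant core on the minus strand at -134 to -126 shared 3 letters with 1 of the 3 metal cores of the window. The *Srxn1* window held 1 antioxidant core, after the start, and 4 matches to the wider letters, among them TGAGTCAGC at -45 to -37. Wider letters occurred at least once in 41.34% of all windows and 4 or more times in 0.3014%. An antioxidant core was also found for *Nfe2l2* and for 1 of the 3 starts of *Txnrd1*, whereas the *Nqo1* window held no match of any kind and the *Keap1* window only 1 to the wider letters. *Hmox1* and *Gclc* are named only. Such matches describe letters and not bound sites. The GENCODE transcripts of *Mt2* begin 46 and 242 bases after the RefSeq start, so the window printed for it is not directly upstream of them. Those of *Mt1* begin at -7, 122 and 152 bases from its RefSeq start. All the metal cores of the *Mt1* window therefore lie upstream of the later starts.

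The 8 libraries held 23985356 to 33012497 counts each. The 10 most abundant genes took 18.8% to 26.2% of a library. All of the 8 muscle fibre markers were detected in every library, with *Myh4*, the fast type IIb myosin heavy chain, at 1461400 normalized counts on average, and *Apoa1* and *Krt5*, genes of liver and keratinocytes, had 0 counts in every library. Of the other 4 genes listed as markers of other tissues, *Alb*, *Ttr* and *Gfap* had at most 8 counts in a library, while *Myh6*, the alpha myosin heavy chain of heart, was detected at 1138 ± 368 normalized counts. The labels name the vastus lateralis muscle, whereas the study's methods name the gastrocnemius; both are hindlimb muscles and the data do not tell them apart. Nothing in the labels gives a batch. By chi-square per degree of freedom over genes, the closest pairs of libraries were mice 3 and 4 (16.1) and mice 1 and 2 (21.5), and the pairs between these sets came to 97.2 to 119.1. The permutation tests below treat the mice as exchangeable, and their p-values measure the spread between these mice only. In bulk tissue, fewer cells of a type and less RNA per cell cannot be told apart.

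The regulators were expressed at similar levels but spread differently. *Nfe2l2* (ENSMUSG00000015839, GRCm38 chr2:75675513-75704641, minus strand) had a lowest value of 1342 normalized counts in mouse 7, a median of 1823 and a highest value of 2384 in mouse 4, with a mean of 1838 ± 352 (SD, n = 8). Mouse 8, at 2221, was the other high library, and mouse 6, at 1465, the other low one. *Keap1* (ENSMUSG00000003308, chr9:21229730-21239361, minus strand) ranged from 2009 in mouse 1 through a median of 2240 to 2505 in mouse 4, with a mean of 2207 ± 173. The highest mouse was 1.25 times the lowest for *Keap1* and 1.78 times for *Nfe2l2*. The ratio of *Nfe2l2* to *Keap1*, in normalized counts with no correction for length, was 0.830 ± 0.123, from 0.659 in mouse 7 to 0.953 in mouse 8. An antisense gene, *Gm16754*, shares 510 of the 4693 exon bases of *Keap1*, but had at most 3 counts in a library.

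The enzymes of glutathione synthesis differed in level and in which mouse was lowest. GCLC is the catalytic subunit of glutamate-cysteine ligase, the rate-limiting enzyme of glutathione synthesis, and GCLM is its modifier subunit. *Gclc* (ENSMUSG00000032350, chr9:77754535-77794485, plus strand) ranged from 347 normalized counts in mouse 6 through a median of 457 to 540.4 in mouse 2, with a mean of 457 ± 61.0. *Gclm* (ENSMUSG00000028124, chr3:122245557-122270732, plus strand) ranged from 796 in mouse 1 through a median of 1050.1 to 1140.2 in mouse 4, with a mean of 1013 ± 107. The other 7 mice lay at 927 or more for *Gclm*, and mouse 1 stood below them. The *Gclm* to *Gclc* ratio of normalized counts was 2.24 ± 0.309, from 1.79 in mouse 1 to 2.67 in mouse 6. The *Gclm* value is uncertain to the extent that *Gm6061*, a transcribed pseudogene on the same strand with 1042 ± 153 normalized counts of its own, and *Gm17494* share 296 of its 6291 exon bases, and 4.58% of the stretches of 50 bases in its transcripts also occur in other genes.

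Of the genes for thiol and peroxiredoxin repair, *Txnrd1* was steady and *Srxn1* was not. *Txnrd1* (ENSMUSG00000020250, chr10:82833951-82897712, plus strand), the cytosolic thioredoxin reductase, ranged from 1449 in mouse 6 through a median of 1700 to 1951 in mouse 4, with a mean of 1694 ± 145. *Srxn1* (ENSMUSG00000032802, chr2:152105516-152111376, plus strand), sulfiredoxin, which reactivates overoxidized peroxiredoxins, ranged from 501 in mouse 1 through a median of 815 to 996 in mouse 7, with a mean of 797 ± 175. Mice 4, 7 and 8 were the highest for *Srxn1*, at 937 to 996, and mice 1 and 6 the lowest, at 501 and 631.

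*Nqo1* and *Hmox1* encode the detoxifying enzymes of the set. *Nqo1* (ENSMUSG00000003849, chr8:107388225-107403206, minus strand), a quinone reductase often used as a readout of NRF2, ranged from 679.5 in mouse 1 through a median of 1127 to 1489.8 in mouse 4, with a mean of 1136 ± 288. Mouse 3, at 1489.6, was next to mouse 4, and mice 1 and 2 were the lowest. *Hmox1* (ENSMUSG00000005413, chr8:75093621-75100589, plus strand), heme oxygenase 1, which opens the heme ring, had the lowest counts of the set, 214 to 394 reads per library. Its normalized values ranged from 234.5 in mouse 2 through a median of 275 to 386 in mouse 4, with a mean of 284 ± 53.0. Mice 2, 7 and 5 were nearly equal at the low end, at 234.5, 236.2 and 236.6.

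The metallothioneins varied most. *Mt1* (ENSMUSG00000031765, chr8:94179082-94180327, plus strand) had 695 normalized counts in mouse 2, a median of 1790 and 3054 in mouse 3, with a mean of 1796 ± 740. *Mt2* (ENSMUSG00000031762, chr8:94172664-94173568, plus strand), which ends 5514 bases before *Mt1* starts, had 777 in mouse 2, a median of 2368 and 3816 in mouse 3, with a mean of 2307 ± 1098. The highest mouse was 4.39 times the lowest for *Mt1* and 4.91 times for *Mt2*. Mice 1 and 2 were the lowest for both genes, at 979 and 695 for *Mt1* and at 1139 and 777 for *Mt2*, and no other mouse was below 1677 for either gene. The *Mt2* to *Mt1* ratio of normalized counts varied much less than either gene, at 1.25 ± 0.176, from 0.996 in mouse 5 to 1.58 in mouse 7. No stretch of 50 bases is shared between the transcripts of *Mt1* and those of any other gene. Of the 588 exon bases of *Mt2*, 432 are also exon of the antisense gene *Gm45774*, which had 28.5 ± 12.2 normalized counts, and 45.8% of the stretches of 50 bases in *Mt2* transcripts occur in that gene. Whether reads were counted by strand is not given in the sources used here, so reads in those bases may have been left uncounted for *Mt2*. Its mean level would be 14789 normalized counts per kb over the 156 exon bases that are not shared, against 3924 over all of them.

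**Figure D1:**
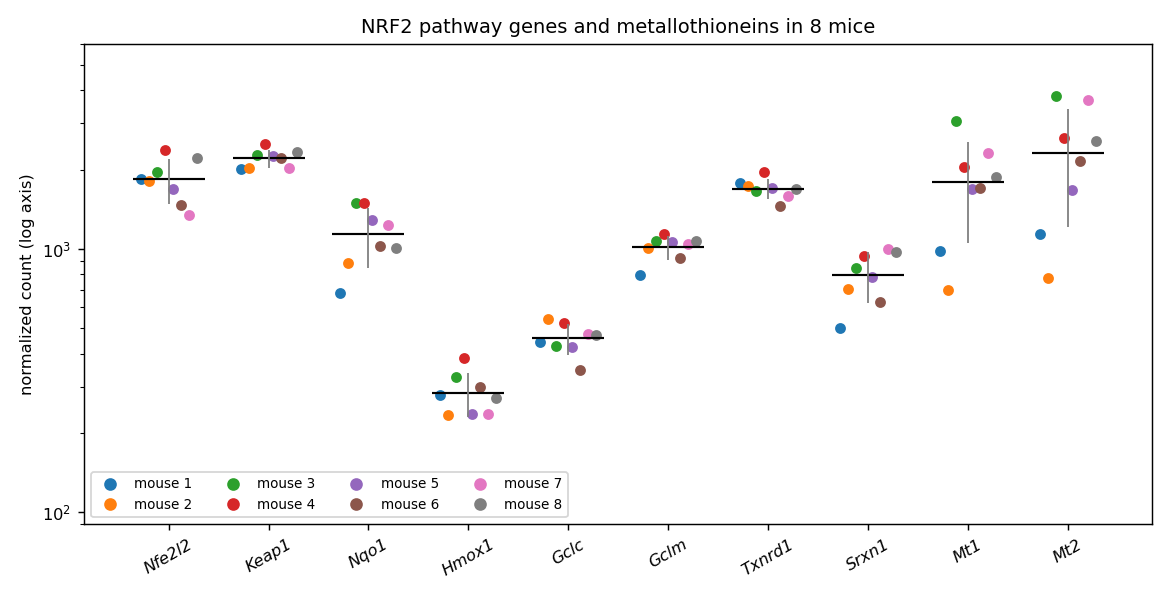
Normalized counts (log axis) of the 10 genes in each mouse, 1 colour per mouse, with the mean as a horizontal line and the SD as a vertical line (n = 8). *Mt1* and *Mt2* span the widest ranges, with mice 1 and 2 lowest, and mouse 4 is at or above the middle of every gene.

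Single mice held the same rank in many of the genes. Mouse 4 was above the median for 10 of 10 genes and highest for 6 of them, mouse 6 was below the median for 9, and mouse 2 for 8. Over all genes tested, mouse 4 was above the median for 52.5% and highest for 13.1%, and mice 6 and 2 were below it for 50.9% and 50.8%. The library of mouse 4 had the smallest total and the second lowest share of counts in the 10 most abundant genes, whose part in its rank was not tested. Mouse 1 was lowest for 4 genes (*Keap1*, *Nqo1*, *Gclm* and *Srxn1*), mouse 2 for 3 (*Hmox1*, *Mt1* and *Mt2*), and mouse 6 for *Gclc* and *Txnrd1*, while over all genes tested these mice were lowest for 13.8%, 13.5% and 7.53%.

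Whether a gene differed between mice by more than counting error was tested with a chi-square of the recovered counts for every gene with at least 10 counts in every library. All 10 genes met that minimum, and 10 of 10 varied beyond counting error after Benjamini-Hochberg adjustment over the 15135 genes tested, a call made for 81.0% of all genes tested. A positive call is thus the usual state of a gene at this depth, and the size of the spread separates the genes better. The coefficient of variation was 47.6% for *Mt2*, 41.2% for *Mt1* and 25.4% for *Nqo1*, against 2.10%, 2.38% and 3.0% from counting alone. Among the 500 genes nearest in mean level, whose median was 12.1% to 12.8%, these 3 stood at percentiles 99.6, 97.4 and 91.2. *Srxn1* (22.0%, percentile 88.0), *Nfe2l2* (19.1%, percentile 83.8) and *Hmox1* (18.7%, percentile 75.4) followed. *Gclc* was near the middle at 13.4% (percentile 51.4) and *Gclm* below it at 10.5% (percentile 38.4). The steadiest were *Txnrd1* at 8.59% (percentile 22.2) and *Keap1* at 7.84% (percentile 12.6). The median over the 10 genes was 18.9%, beside 15.6% over all genes tested.

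**Figure D2:**
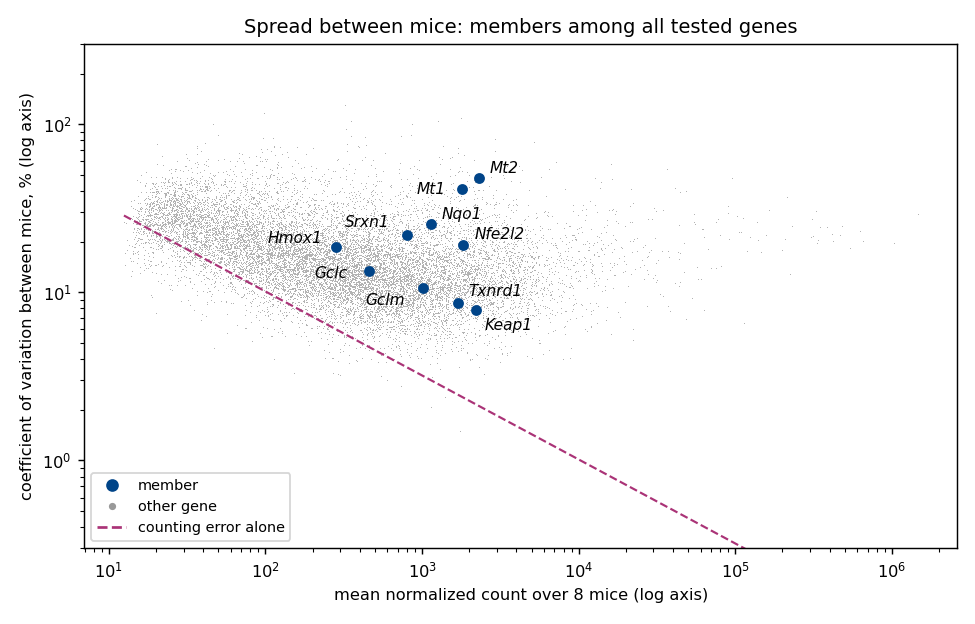
Coefficient of variation between the 8 mice in percent against the mean normalized count (both axes log), with the 10 genes as large points, the other genes tested as grey points and the spread that counting alone gives as a dashed line. *Mt1* and *Mt2* lie near the top of the cloud at their level and *Keap1* and *Txnrd1* in its lower part, all above the counting line.

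Levels of different genes were compared per kb of exon. *Mt2* was first at 3924 ± 1868 normalized counts per kb and *Mt1* second at 1441 ± 594, followed by *Nqo1* (731 ± 186), *Nfe2l2* (484 ± 92.6), *Keap1* (470.2 ± 36.9), *Srxn1* (282 ± 62.1), *Txnrd1* (239 ± 20.5), *Hmox1* (162 ± 30.3), *Gclm* (161 ± 17.0) and *Gclc* (121 ± 16.2). The median over all genes tested was 88.0 per kb, so each of the 10 was above it. Neighbours in the order were compared within mice by an exact sign-flip permutation test, two-sided, whose smallest p is 0.0078, with adjustment over the 9 neighbour pairs. *Mt2* exceeded *Mt1* by 1.40 ± 0.20 on the log2 scale in 8 of 8 mice (exact p = 0.0078, adjusted p = 0.018). This step includes the exon lengths of 588 and 1246 bases, which are the same in every mouse. With no correction for length, the *Mt2* to *Mt1* ratio was 1.25 ± 0.176, and 0.996 in mouse 5. *Mt1* exceeded *Nqo1* by 0.90 ± 0.44 in 7 of 8 mice (exact p = 0.016, adjusted p = 0.023). The steps from *Nqo1* to *Nfe2l2* (0.57, 7 of 8 mice), *Keap1* to *Srxn1* (0.77, 8 of 8), *Txnrd1* to *Hmox1* (0.58, 8 of 8) and *Gclm* to *Gclc* (0.41, 8 of 8) also passed, with adjusted exact p between 0.018 and 0.023. Leaving out mouse 3, mouse 4 or mouse 6 reduced the steps that passed to 3 of 9. No difference beyond the spread was found between *Nfe2l2* and *Keap1* (0.02 ± 0.22, adjusted exact p = 0.85), *Srxn1* and *Txnrd1* (0.21 ± 0.35, adjusted exact p = 0.17), or *Hmox1* and *Gclm* (-0.00 ± 0.27, adjusted exact p = 0.98). The middle of this order rests on the length used. Per kb of mean transcript length, *Mt2* and *Mt1* stayed first, *Nfe2l2* and *Keap1* came before *Nqo1*, and *Hmox1* was last.

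**Figure D3:**
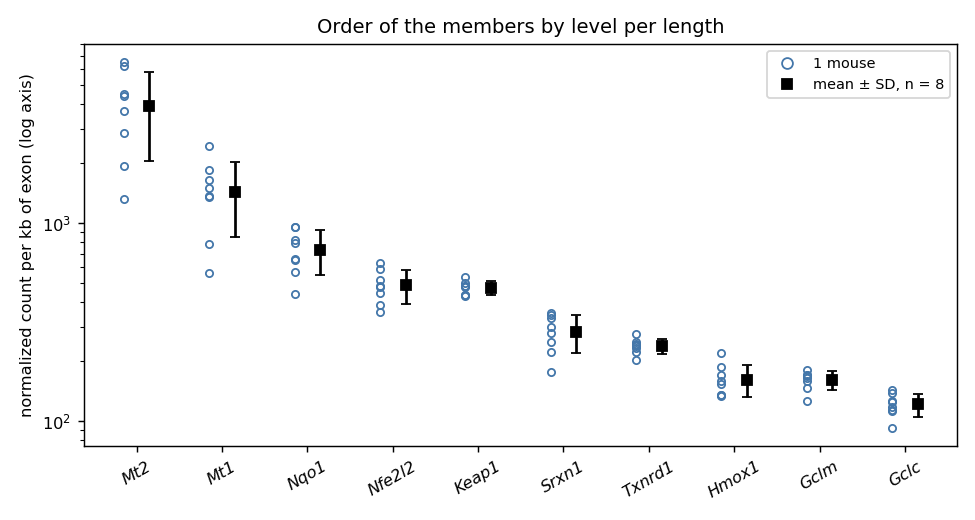
Normalized count per kb of exon (log axis) for the 10 genes in falling order of their mean, with 1 open circle per mouse and the mean ± SD beside it (n = 8). The means fall from 3924 for *Mt2* to 121 for *Gclc*, and the points of *Nfe2l2* and *Keap1*, and of *Hmox1* and *Gclm*, overlap.

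Which of the genes varied together between mice was measured for all 45 pairs by Pearson's r of log2(normalized count + 1), with two-sided p-values from exact permutation of the mice and adjustment over the 45 pairs. The coefficient was above 0 in 38 pairs and its median was 0.41. Coefficients near 0 ranked near the middle of the 15134 other genes, at 7030 for *Nfe2l2* with *Mt1* (0.03) and 7726 for *Keap1* with *Gclc* (-0.007). A coefficient above 0 is thus common. An unadjusted exact p was under 0.05 in 8 pairs and an adjusted one in 1. That pair was *Mt1* and *Mt2*, with r = 0.98 (exact p = 2.48e-05, the smallest these pairings can give, and adjusted p = 0.0011) and the same order of all 8 mice in both genes (Spearman's rho = 1, exact p = 4.96e-05). Among 15134 other genes, each was the one whose pattern was most like the other's. Without mice 1 and 2, the lowest for both, r was 0.89 over the 6 remaining mice (exact p = 0.0097, adjusted p = 0.19), and without mice 3 and 4 it was 0.97 (exact p = 0.0014, the smallest that 6 mice allow, adjusted p = 0.0625).

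The next pairs joined *Gclm* with *Srxn1* and *Nqo1*. *Gclm* and *Srxn1* had r = 0.91 (exact p = 0.0025, adjusted p = 0.056) and rho = 0.69 (exact p = 0.069), and r was 0.53 without mice 1 and 6, the farthest from the median of *Gclm*. *Nqo1* and *Gclm* had r = 0.86 (exact p = 0.0064, adjusted p = 0.096) and rho = 0.81 (exact p = 0.022), and r was 0.52 without mice 1 and 4. *Nqo1* also had r = 0.80 with *Mt1* (exact p = 0.016, adjusted p = 0.18) and r = 0.73 with *Mt2* (exact p = 0.038, adjusted p = 0.24). None of these passed the adjustment.

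**Figure D4:**
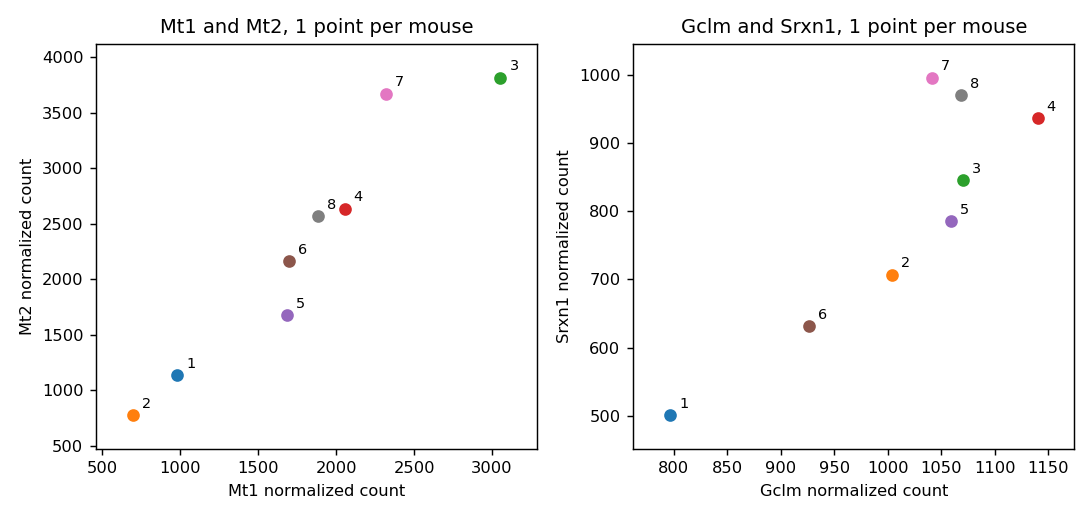
*Mt2* against *Mt1* (left) and *Srxn1* against *Gclm* (right), in normalized counts, 1 numbered point per mouse. In the left panel the mice keep the same order on both axes from mouse 2 to mouse 3, and in the right panel mouse 1 lies apart at the lower end.

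Among the targets, by r over all 8 mice, the highest coefficient with *Nfe2l2* was that of *Txnrd1* and the lowest that of *Nqo1*. Without mice 4 and 7, *Gclc* was highest (0.64) and *Hmox1* lowest (0.02). By rho, *Srxn1* was lowest (0.14), and *Txnrd1* and *Gclm* were equal (0.62). *Txnrd1* had r = 0.76 with *Nfe2l2* (exact p = 0.028, adjusted p = 0.22) and r = 0.74 with *Gclc* (exact p = 0.043, adjusted p = 0.24), while *Txnrd1* and *Nqo1* had r = 0.07 (exact p = 0.87). *Nfe2l2* had a coefficient above 0 with 6 of its 6 targets, from 0.15 for *Nqo1* to 0.76 for *Txnrd1*, and near 0 with *Mt1* (0.03) and *Mt2* (-0.02). *Keap1*, whose product opposes NRF2, had a coefficient above 0 with 5 of the 6 targets, up to 0.70 for *Hmox1*, and r = 0.64 with *Nfe2l2* itself (exact p = 0.083, adjusted p = 0.27). The last was 0.21 without mice 4 and 7, and without mice 1 and 4 the coefficients of *Keap1* with *Nqo1* and *Gclm* went from 0.67 to 0.31 and 0.26, whereas over all mice rho was higher than r, at 0.74 (exact p = 0.046) and 0.90 (exact p = 0.0046). *Gclc* and *Gclm*, the subunits of 1 enzyme, had r = 0.38 (exact p = 0.34, adjusted p = 0.60). That value depended on the mice and the scaling: it was 0.63 without mouse 1, 0.24 without mouse 4, 0.25 without mouse 6, 0.65 with library totals, and 0.91 without mice 1 and 2 (exact p = 0.026, adjusted p = 0.28). The differences between these coefficients were not tested.

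**Figure D5:**
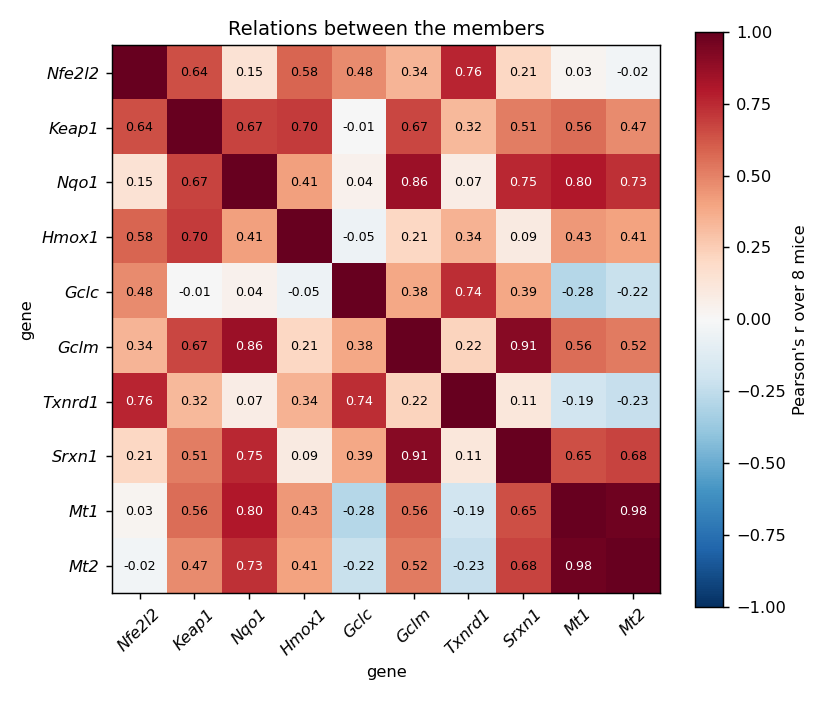
Pearson's r of log2(normalized count + 1) over the 8 mice for each pair of the 10 genes, from -1 (blue) to 1 (red). The darkest cell off the diagonal is *Mt1* with *Mt2* at 0.98, *Nqo1*, *Gclm* and *Srxn1* form a block from 0.75 to 0.91, and *Gclc* and *Txnrd1* are negative with both metallothioneins.

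Each gene was also set beside 6 marker lists and 2 library measures, 80 relations tested in the same way, of which 9 had an unadjusted exact p under 0.05 and 0 passed the adjustment. By r over all 8 mice, the list nearest to the metallothioneins was that of 10 glucocorticoid target genes. It had r = 0.86 for *Mt1* (exact p = 0.0063, adjusted p = 0.22, rho = 0.69) and r = 0.82 for *Mt2* (exact p = 0.011, adjusted p = 0.22, rho = 0.69). By rho the fibroblast list was farther from 0, at -0.71 with each gene. The coefficients of the glucocorticoid list depended on 2 mice. Without mice 1 and 2, r with that list fell to 0.49 for *Mt1* (exact p = 0.35) and 0.32 for *Mt2* (exact p = 0.52). All 10 genes of that list were detected in every library and had a coefficient above 0 with *Mt1*. They ranged from 0.03 for *Sgk1* and 0.24 for *Tsc22d3* to 0.94 for *Ddit4*, a glucocorticoid- and stress-induced inhibitor of mTORC1. *Ddit4* ranged from 1391 normalized counts in mouse 2 to 4206 in mouse 3, the same end mice as *Mt1*. *Fkbp5*, a feedback regulator of the glucocorticoid receptor, was also lowest in mouse 2, at 2189, but highest in mouse 5, at 4678. The summed list ranged from 98730 to 144568 normalized counts. *Keap1* had a coefficient above 0 with the same list too (r = 0.78, exact p = 0.016, adjusted p = 0.26, rho = 0.95).

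Of the lists of other cell types, all but blood had coefficients below 0 with both metallothioneins, and 7 of the 8 muscle fibre markers were also below 0 with *Mt1*. The fibroblast list had r = -0.70 with *Mt1* (exact p = 0.050, adjusted p = 0.37) and r = -0.75 with *Mt2* (exact p = 0.033, adjusted p = 0.37), with 8 of 8 genes negative for *Mt1* and a sum of 10294 to 19186 normalized counts. The endothelial list had r = -0.70 and -0.76, with 6 of 6 genes negative, but without mice 1 and 2 these were 0.37 and -0.06. Macrophages (-0.34 with *Mt1*, 8 of 9 genes negative) and adipocytes (-0.40, 5 of 5 genes negative) were weaker, with exact p of 0.43 and 0.34. The macrophage gene that went the other way was *Cd68*, at 0.80 with *Mt1*. *Hmox1*, which macrophages express strongly, had r = 0.53 with the macrophage list (exact p = 0.17, adjusted p = 0.58), which went from 0.27 without mouse 4 to 0.69 without mouse 2. The 9 genes of that list, all detected in every library, summed to 2516 in the lowest mouse and 6279 in the highest. No marker list of a cell type had a gene at 0 in every library. The share of counts in the 10 most abundant genes, among them *Myh4* and transcripts of mitochondrial genes, had r = -0.85 with *Nqo1* (exact p = 0.0083) and with *Keap1* (exact p = 0.0089), -0.72 with *Mt1* (exact p = 0.044) and -0.69 with *Gclm* (exact p = 0.051), all with adjusted p of 0.22 or more, and that of *Mt1* was -0.42 without mice 1 and 2. That share was highest in mice 1 and 2, at 26.2% and 25.3%, and lowest in mice 3 and 4, at 18.8% and 19.6%. The part of cell makeup, glucocorticoid signalling and library composition in the spread of these genes was not tested.

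Across all genes tested, those most like 4 of the genes by r over the 8 mice were found by rank alone. For *Nfe2l2* they were *Tmem140* (0.96), *Rbm7* (0.96) and *Fbxo32* (0.95), the last encoding atrogin-1, a ubiquitin ligase of muscle atrophy, at 62917 ± 13200 normalized counts. *Nqo1* was nearest to *Tbl3* (0.98), *Gm47282* (0.97) and *Mtmr1* (0.97), and *Hmox1* to *Amdhd2* (0.99), *Acad10* (0.99) and *Agtrap* (0.98). Apart from *Mt2*, *Mt1* was nearest to *Agpat3* (0.97), *Znrd1* (0.97) and *Perp* (0.96). These are the highest of 15134 coefficients over 8 mice, so no p is attached to them.

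The wider pathway was described through lists of related genes. Of 46 other NRF2 target genes, 41 reached the minimum in every library and 40 of these varied beyond counting error, beside 81.0% of all genes tested. The median coefficient of variation of the list was 13.9%, beside the 15.6% of all genes tested, and its median level was 313 per kb. The most abundant per kb were *Fth1* (11081), the ferritin heavy chain that stores iron, *Sqstm1* (8345), the p62 autophagy adaptor that binds KEAP1, and *Gpx4* (3730), which reduces lipid peroxides. The most variable were *Aldh3a1* (75.6%, 10 to 52 counts per library), *Sesn1* (40.2%) and *Cdkn1a* (29.0%). *Gpx2*, *Slc7a11*, *Gsta1*, *Gsta2* and *Cbr3* were under the minimum, so the cystine transporter that supplies glutathione synthesis, *Slc7a11*, had at most 8 counts in a library.

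Of 16 regulators and partners of NRF2, 15 reached the minimum and 15 varied beyond counting error, beside 81.0% of all genes tested. The most abundant were *Sqstm1*, *Nfe2l1* (4789 per kb), which encodes the related factor NRF1, and *Park7* (3775), which encodes DJ-1. *Maff* (39.3%) and *Mafk* (27.4%), small MAF partners of NRF2, and *Park7* (21.6%) were the most variable. *Maff* ranged from 102 normalized counts in mouse 2 to 339 in mouse 4. *Nfe2l3* was under the minimum, with at most 1 count.

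Of 11 zinc and metallothionein genes, 9 reached the minimum and 9 varied beyond counting error, beside 81.0% of all genes tested. The median level of the list was 64.0 per kb. The zinc importer *Slc39a1* was the most abundant (369 per kb), followed by *Slc39a14* (130) and *Slc30a2* (95.7). *Slc39a14*, a zinc and iron importer known to be induced in inflammation and muscle wasting, was the most variable at 73.2%, with 2769 normalized counts in mouse 3 and 3120 in mouse 4 against 493 to 1047 in the other 6. *Slc39a8* (51.4%, 10 to 37 counts) and *Slc30a2* (28.8%) followed. *Mtf1*, which encodes the metal-sensing factor itself, was at 632 ± 69.3 normalized counts, a coefficient of 11.0% (percentile 41.4). The other metallothionein genes were scarce, *Mt3* with 5 to 30 counts and *Mt4* with 0 or 1 count per library.

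Of 12 genes of heme handling, 11 reached the minimum and 9 varied beyond counting error, beside 81.0% of all genes tested. The median coefficient of variation of the list was 12.9%. *Hmox2*, the constitutive heme oxygenase, was among the genes whose spread did not exceed counting error, at 650 ± 33.9 normalized counts (5.21%). It stood at 293 per kb, beside 162 for *Hmox1*. *Slc48a1*, a heme transporter, was the most abundant (594 per kb), with *Hp*, haptoglobin, at 360.0. *Alas2* (67.2%), an enzyme of red cell precursors, *Hp* (66.8%) and *Cd163* (36.7%), the macrophage receptor for hemoglobin with haptoglobin, were the most variable, and *Hpx* was under the minimum.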

How the data were processed

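RNA-seq libraries from 8 mice of 1 group were analysed. Per the labels and methods, the authors trimmed reads with fastp, checked them with FastQC, mapped them with STAR to GRCm38.p6 and counted them per gene. The deposited values are a signal: each library's counts after division by a single DESeq2 size factor, and are called normalized counts here. Whole reads were recovered for 100% of values (tolerance 0.01 of a read). Gene symbols, exons and lengths came from GENCODE M21, in which 55141 of 55487 identifiers were found, and promoter windows, used for 8 of the 10 genes, from RefSeq on GRCm38.p6. The design had assumed raw counts.

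Totals ranged from 23985356 to 33012497 counts, and the chi-square of library pairs found no duplicate library. Reads carried no molecular identifiers, so counting error is a lower bound. Only 1 condition was analysed, so no difference between groups was tested. List scores are means of z-scores. The members and lists were chosen with earlier results of these data known. Genes outside the set were named by rule: the 3 highest levels per kb and the 3 highest coefficients of variation of each list, the genes under its minimum, the 3 most similar genes of 5 members (those of *Mt2* are not reported here), and the marker lists. *Mtf1* and the genes overlapping a member were named outside the rule, after their values were seen. The self-test on simulated data recovered the planted spreads and relations. TMM factors came from edgeR 4.0.16 in R 4.3.3, tests from scipy 1.17.1 and numpy 2.4.6 in Python 3.11.15, tables from pandas 2.3.3 and figures from matplotlib 3.10.9. Alternatives were TMM factors, library totals, a pseudocount of 5, Spearman's rho, removal of GC content and length trends, no filter, the median, mean transcript length and leaving out each mouse. Relations without mice 1 and 2, relations without mice 3 and 4, and the wider antioxidant letters were chosen after seeing the data. The metallothionein proteins were not analysed here.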

Additional observations from a re-analysis of the deposited data

How the results depend on the processing

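No paired comparison of groups of mice was possible because the 8 mice form 1 group. Pairing within mice was used only between neighbouring genes in the order per kb. The 10 genes varied beyond counting error in every setting run, beside 12264 of all genes tested with the authors' size factors, 12314 with TMM factors, 13159 with library totals, 13419 of 22823 (58.8%) with no filter, and 11623 to 12112 when each mouse was left out. The count of pairs that passed the adjustment was 1 in the analysis given above and in the settings not named next. It was 7 with library totals, where *Nfe2l2* with *Txnrd1*, *Keap1* with *Hmox1* and with *Gclm*, *Nqo1* with *Gclm* and with *Srxn1*, and *Gclm* with *Srxn1* joined *Mt1* with *Mt2*. Leaving out each mouse gave 1 to 2 pairs, with *Gclm* and *Srxn1* added without mouse 7 (r = 0.96, adjusted exact p = 0.036). It was 0 without mice 1 and 2 and 0 without mice 3 and 4, where *Mt1* with *Mt2* had r = 0.89 and 0.97, but the smallest exact p that 6 mice allow, 0.0014, comes to 0.0625 when multiplied by the 45 pairs, so that a single pair could not pass. Relations with lists and library measures that passed rose from 0 to 4 with library totals, where the share of the 10 most abundant genes passed with *Keap1* (r = -0.96), *Gclm* (r = -0.91) and *Nqo1* (r = -0.92, adjusted exact p = 0.046), and the glucocorticoid targets with *Keap1* (r = 0.91); the cause was not tested. Neighbours in the order per kb that passed were 6 of 9 with all mice, 4 with mean transcript length, and 3 to 6 when each mouse was left out, with 3 without mouse 3, without mouse 4 and without mouse 6. Mean transcript length also turned the order of *Nqo1* with *Nfe2l2*, *Keap1* and *Txnrd1*, of *Srxn1* with *Txnrd1* and *Gclm*, and of *Hmox1* with *Gclm* and *Gclc*. The coefficient of *Mt1* with the endothelial list turned from -0.70 to 0.37 without mice 1 and 2. Depth limits the genes under the minimum of 10 counts most, several of them with 0 counts in a library, and then *Aldh3a1* and *Slc39a8*, each with as few as 10.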
